A study of Homo sapiens with 6 samples.

Results

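The genes described here are 54 DNA replication and S phase genes, a list of named genes that copy DNA or open S phase, and their mRNA was compared between H1299 cells carrying a control shRNA and H1299 cells carrying an Ephexin1 shRNA. Each of the 54 symbols was found once among the 26255 genes of the table, and all 54 were expressed highly enough to be tested, among 16020 genes tested in all. H1299 (NCI-H1299) is a lung cancer cell line, and there were 3 libraries in each group, called shControl and shEphexin1. Ephexin1 is the protein of the gene NGEF, and the comparison belongs to a study of whether it acts in Ras signaling and in the growth of cancer cells. Both groups carried a pSilencer shRNA plasmid whose U6 promoter drives the hairpin, and the cells were grown in RPMI-1640 with serum. The labels name the neo form of the plasmid, whereas the study's methods describe the hygro form with weeks of hygromycin selection, so the selection agent of these libraries is not settled. The study describes stable knockdown clones, and the names of the 3 shEphexin1 libraries share a stem, so they may come from 1 clone. The labels do not say that the libraries of a group came from separate cultures, so the p values measure the spread between these libraries, which may be technical.

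Before S phase, the origin recognition complex, CDC6 and CDT1 load the MCM2 to MCM7 helicase onto DNA at replication origins, and geminin (GMNN) holds CDT1 in check afterwards. At the start of S phase, CDC7 and cyclin E with CDK2 activate this helicase together with CDC45 and the GINS complex, primase and the DNA polymerases copy the strands, RPA covers the single strands, and PCNA, loaded by the RFC complex, clamps the polymerases to DNA. E2F transcription factors raise many of these mRNAs late in G1 phase, so that their summed level follows how many cells of a culture are cycling. In RNA from a whole culture, fewer cells in S phase and less mRNA in each cell cannot be told apart.

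The values are FPKM, which divide fragments by the length of the transcript and the size of the library, so levels of different genes can be set side by side, but the read number behind each value is unknown. Values of a group are given in the order of its replicate numbers. NGEF was at 13.3, 11.7 and 16.4 FPKM in the control libraries and at 9.81, 8.25 and 10.5 FPKM in the depleted ones. The groups did not overlap, and the log2 fold change of -0.53 (standard error, SE, of 0.163) did not pass the test (limma adjusted p = 0.103). Replicate 2 of both groups stood apart from the rest. Over 15204 genes, not independent of each other, its deviation from the group mean fell with GC content (Spearman's rho of -0.70 for shControl, of -0.77 for shEphexin1), so results are also given for replicates 1 and 3 alone. The deviation of replicate 3 rose with GC content (rho of 0.65 for shControl and 0.67 for shEphexin1), and that of replicate 1 less so (0.34 and 0.47). Of the markers looked at, VIM was at 1979 to 2670 FPKM, KRT18 at 67.6 to 109 FPKM in shControl and 36.3 to 54.7 FPKM in shEphexin1, and KRT8 at 5.13 to 8.44 and 2.65 to 3.48 FPKM. These keratins of epithelial cells fell (adjusted p = 0.0439 and 0.0304), and their part in the results was not tested. The markers of blood, endothelium and fibroblasts that are reported here were at most 1.47 FPKM in any library, and PTPRC, CD3E and LUM were listed at 0 in all 6.

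Of the 54 genes, 2 were downregulated and 2 were upregulated in the Ephexin1-depleted cells, and 50 did not pass the test. RPA3, a subunit of the single-strand binding complex RPA, and PRIM1, the catalytic subunit of primase, fell. CCNE1 (cyclin E1, the partner of CDK2 at S phase entry) and ORC5, a subunit of the origin recognition complex, rose. A gene is said to have risen or fallen where its limma p, adjusted by Benjamini-Hochberg over all 16020 genes, was at most 0.05. The 4 genes are 7.41% of the list, and 7.01% of all genes tested passed in either direction (4.32% lower and 2.69% higher), so the share of the list was close to that of all genes. A fit with the replicate number as a block, a pairing that the sample titles do not state, called 21 lower and 5 higher. These are 48.1% of the list, beside 33.5% of all genes. At the stricter thresholds of the study (an adjusted p up to 0.025 with a change of 2-fold or more), RPA3 alone of the 54 passed, beside 1.89% of all genes.

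The changes were small. The log2 fold change was below 0 in 40 of the 54 genes (74.1%), against 51.1% of all genes tested (38 of the 54 after median centring of the libraries and 34 after quantile normalization). Its median was -0.13, against -0.0093 over all genes and -0.034 over the 12747 genes left by a filter of 1 FPKM. The 54 genes were at 6.91 FPKM or more in the mean of shControl. In level, the median gene was at 91.4% of its shControl mean. The FPKM of all listed genes summed to 627445, 561321 and 651421 in the control libraries and to 558721, 516064 and 587203 in the depleted ones. Those of the 54 genes summed to 2086.3, 1934.4 and 2136.9 against 1879.7, 1771.5 and 1870.5. The fit as reported did not scale to these totals, and their part in the small decreases was not tested. All 3 shEphexin1 libraries lay under all 3 shControl libraries for 15 of the genes and above them for 2, and the groups overlapped for 37. Over all genes tested, 15.4% did not overlap on the lower side and 12.8% on the higher side. An unadjusted p of at most 0.05 was reached by 15 of the 54 and by 23.3% of all genes. For 50 of the 54, the whole 95% interval of the fold change lay within 2-fold in either direction.

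**Figure D1:**
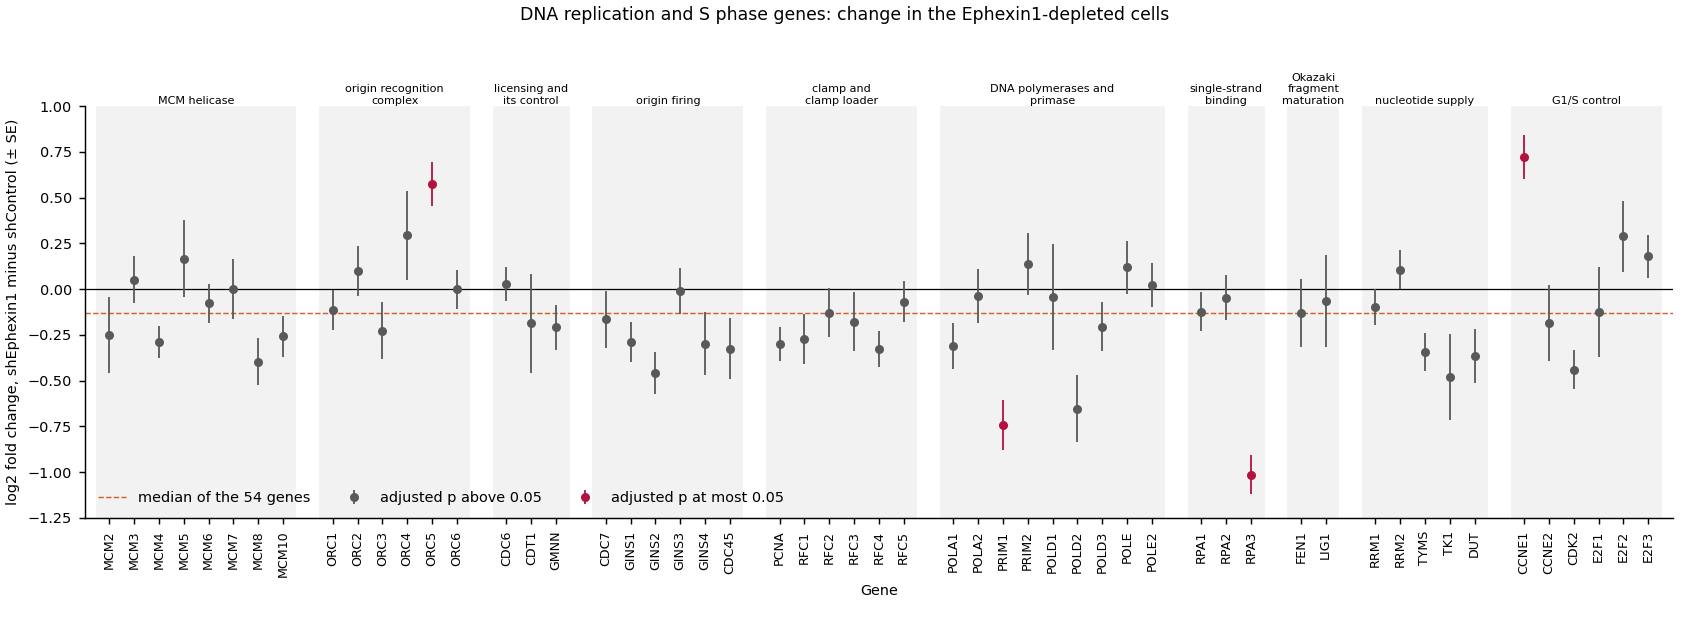
The log2 fold change (shEphexin1 minus shControl, vertical axis, with its standard error) of each of the 54 genes, grouped by role, with the 4 genes that passed the test in red and the median of the 54 as a dashed line. Most points lie a little below 0, with RPA3 at -1.01 and PRIM1 at -0.74 as the lowest called genes and CCNE1 at 0.72 and ORC5 at 0.57 as the highest.

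RPA3 was at 26.2, 26.8 and 25.9 FPKM in the control libraries and at 12.4, 12.5 and 14.0 FPKM in the depleted ones. The means of 26.3 ± 0.455 and 12.99 ± 0.911 FPKM (SD, n = 3) put the depleted cells at 49.4% of control, a log2 fold change of -1.01 (SE 0.105, limma adjusted p = 0.00368), and the groups were far apart. RPA3 passed in all 20 fits that were made, the lowest and highest adjusted p of its alternatives being 0.000183 and 0.0413. The fits reuse the same libraries and several differ little, so such tallies, here and below, are not independent checks. The other RPA subunits did not pass. RPA1, the large subunit that holds most of the contacts with DNA, was at 19.4, 19.6 and 18.8 against 19.0, 16.5 and 17.5 FPKM, and RPA2 at 45.0, 38.0 and 49.8 against 42.7, 42.0 and 43.1 FPKM. The ratio of RPA3 to RPA1 was therefore 1.37 ± 0.0124 in shControl and 0.738 ± 0.0760 in shEphexin1, and the ratio of RPA2 to RPA1 was 2.31 ± 0.357 and 2.42 ± 0.150 (SD, n = 3). The RPA3 ratio did not overlap between groups (two-sided exact permutation test, p = 0.1), whereas the RPA2 ratio did (exact permutation p = 0.7). With 3 libraries against 3, 0.1 is the smallest p this test can give, here and for every ratio given. The ratios were picked after their values had been seen, and those with a called gene repeat its change, so they are descriptions. RPA3 spans positions 7676149 to 7758238 of chromosome 7 (GRCh37, minus strand), where 77897 bases overlap UMAD1 on the other strand. Whether the authors' counting used the strand is not given in the sources used here, so reads of the pair may not be separable. UMAD1 was at 5.92, 8.72 and 7.52 FPKM in the control libraries and 4.27, 5.43 and 3.07 FPKM in the depleted ones, with a log2 fold change of -0.80 (adjusted p = 0.0932).

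PRIM1 was at 33.6, 35.5 and 34.4 FPKM in the control libraries and at 19.8, 24.6 and 17.8 FPKM in the depleted ones, with replicate 2 the highest library of each group and no overlap between groups. Its means were 34.5 ± 0.957 and 20.7 ± 3.49 FPKM (SD, n = 3), or 60.2% of control, and the log2 fold change was -0.74 (SE 0.137, limma adjusted p = 0.0244). PRIM2, the regulatory subunit of the same enzyme, was at 22.6, 26.2 and 21.2 FPKM in the control libraries and 24.01, 32.2 and 21.8 FPKM in the depleted ones, which overlap. The ratio of PRIM1 to PRIM2 lay below the control range in all 3 depleted libraries, at 1.49 ± 0.133 in shControl and 0.802 ± 0.0330 in shEphexin1 (SD, n = 3, exact permutation p = 0.1). PRIM1 passed in 15 of the 20 fits. Of the fits that leave out 1 library, it passed only without shEphexin1 replicate 2, and the highest adjusted p of any alternative was 0.121. The fits that leave out 1 library called 0.968% to 8.2% of all genes, and the log2 fold change of PRIM1 ran from -0.87 to -0.64 in them. PRIM1 spans positions 57124222 to 57146158 of chromosome 12 (GRCh37, minus strand) and shares 11098 bases with ENSG00000285625 and 1191 bases with NACA, both protein-coding genes on the same strand. No value is given here for the former. NACA, which encodes a subunit of the nascent polypeptide-associated complex, also fell, from 503, 503 and 547 to 324, 336 and 347 FPKM (log2 fold change of -0.62, adjusted p = 0.012), and reads of the shared bases cannot be assigned with certainty to any of these genes.

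CCNE1 was at 6.39, 7.15 and 7.20 FPKM in the control libraries and at 12.2, 11.4 and 10.8 FPKM in the depleted ones. It had the lowest level of the 54 genes in shControl, at 6.91 ± 0.456 FPKM, and was at 11.5 ± 0.680 FPKM in shEphexin1 (SD, n = 3), with no overlap. The log2 fold change was 0.72 (SE 0.119, limma adjusted p = 0.0181), and CCNE1 passed in 16 of the 20 fits. With 1 library left out it passed only without shControl replicate 2 or shEphexin1 replicate 2, and its highest adjusted p was 0.114. Its log2 fold change ran from 0.67 to 0.76 in the fits that leave out 1 library, which called 0.968% to 8.2% of all genes. CCNE2, which encodes the other cyclin E, was at 14.9, 18.7 and 13.5 against 13.3, 17.6 and 10.8 FPKM, and its log2 fold change of -0.19 had a 95% interval from -0.67 to 0.30. CDK2, the kinase that both cyclins activate, was at 59.9, 51.7 and 58.4 FPKM in the control libraries and 44.2, 39.5 and 41.5 FPKM in the depleted ones. The CDK2 groups did not overlap, and the log2 fold change of -0.44 (SE 0.106) just missed the threshold (adjusted p = 0.0521). In the control cells the ratio of CCNE1 to CDK2 was 0.123 ± 0.0159, and in the depleted cells 0.275 ± 0.0143 (SD, n = 3, exact permutation p = 0.1). CCNE1 was thus above the control range, and CDK2 below it, in all 3 depleted libraries.

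ORC5 was at 15.7, 15.5 and 13.6 FPKM in the control libraries and at 22.4, 24.2 and 20.1 FPKM in the depleted ones. The groups did not overlap, with means of 14.9 ± 1.18 and 22.2 ± 2.01 FPKM (SD, n = 3), and the log2 fold change was 0.57 (SE 0.121, limma adjusted p = 0.0362). ORC5 passed in 12 of the 20 fits and in none of the 6 that leave out 1 library. Those 6 fits called 0.968% to 8.2% of all genes, and the log2 fold change of ORC5 ran from 0.51 to 0.64 in them. ORC5 lies on 7q, an arm whose expressed genes had a median log2 fold change of 0.30, and with the arm median subtracted its own was 0.28 (adjusted p = 0.219). The ratio of ORC5 to ORC4, another subunit, overlapped between groups, at 0.409 ± 0.0947 and 0.491 ± 0.0645 (SD, n = 3, exact permutation p = 0.3), whereas that of ORC5 to ORC2 did not, at 0.815 ± 0.0849 and 1.13 ± 0.0687 (exact permutation p = 0.1).

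**Figure D2:**
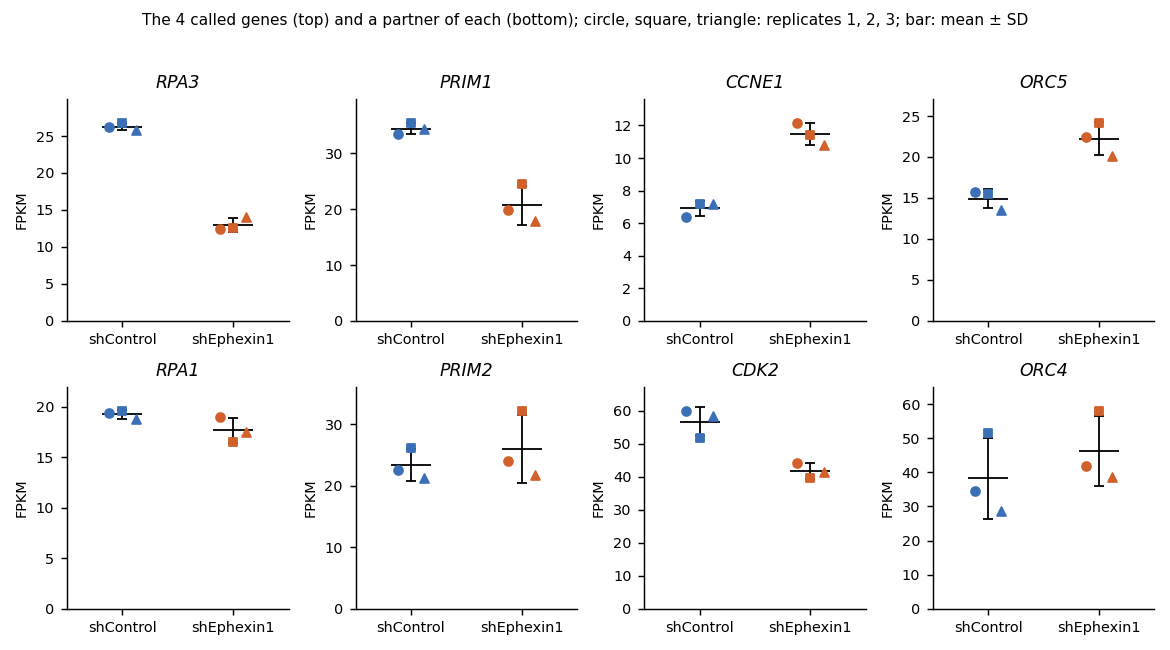
FPKM of each library (circle, square and triangle for replicates 1, 2 and 3) with the mean and SD of 3 libraries, for the 4 genes that passed (top row) and a partner of each in its complex (bottom row), all axes starting at 0. The groups are apart for RPA3, PRIM1, CCNE1, ORC5 and CDK2 and overlap for RPA1, PRIM2 and ORC4.

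Promoters of 46 of the 54 genes were in the RefSeq table used (GRCh38.p14), and those of RPA3, RPA2, CDK2, CCNE2, MCM4, MCM5, GINS4 and POLD3 were not. The 250 bases before the start are shown on the strand of the gene for the called genes that the table holds, and for PCNA, MCM6 and E2F1, which carry the words that many replication promoters share. Capitals mark the E2F words TTTCCCGC, TTTCGCGC, TTTGCCGC and TTTGGCGC and the NF-Y word CCAAT, searched on both strands, with overlapping words counted each.
PRIM1, chr12:56752324-56752573, minus strand: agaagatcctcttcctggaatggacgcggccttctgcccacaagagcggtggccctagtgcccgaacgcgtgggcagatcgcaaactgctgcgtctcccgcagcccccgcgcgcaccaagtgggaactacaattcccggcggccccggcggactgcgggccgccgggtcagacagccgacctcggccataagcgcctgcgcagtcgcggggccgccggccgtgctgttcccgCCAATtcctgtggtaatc
ORC5, chr7:104208014-104208263, minus strand: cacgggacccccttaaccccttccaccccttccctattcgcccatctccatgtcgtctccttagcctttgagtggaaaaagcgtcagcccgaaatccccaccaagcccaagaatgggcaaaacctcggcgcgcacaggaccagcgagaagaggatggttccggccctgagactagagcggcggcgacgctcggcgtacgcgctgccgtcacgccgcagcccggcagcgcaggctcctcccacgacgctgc
CCNE1, chr19:29811741-29811990, plus strand: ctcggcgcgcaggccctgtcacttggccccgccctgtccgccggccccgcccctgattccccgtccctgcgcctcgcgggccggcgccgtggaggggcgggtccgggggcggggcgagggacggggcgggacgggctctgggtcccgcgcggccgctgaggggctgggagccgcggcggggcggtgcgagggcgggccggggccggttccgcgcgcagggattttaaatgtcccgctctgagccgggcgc
PCNA, chr20:5126623-5126872, minus strand: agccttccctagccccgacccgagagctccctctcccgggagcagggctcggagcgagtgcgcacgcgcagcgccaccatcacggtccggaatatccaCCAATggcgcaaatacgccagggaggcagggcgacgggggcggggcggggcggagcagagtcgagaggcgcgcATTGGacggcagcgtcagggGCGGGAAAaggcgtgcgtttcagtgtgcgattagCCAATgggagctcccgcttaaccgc
MCM6, chr2:135876444-135876693, minus strand: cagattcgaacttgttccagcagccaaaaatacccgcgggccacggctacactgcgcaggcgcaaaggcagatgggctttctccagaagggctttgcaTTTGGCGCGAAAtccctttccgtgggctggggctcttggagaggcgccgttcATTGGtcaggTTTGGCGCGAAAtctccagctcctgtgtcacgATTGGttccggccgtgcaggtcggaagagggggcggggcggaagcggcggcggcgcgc
E2F1, chr20:33686386-33686635, minus strand: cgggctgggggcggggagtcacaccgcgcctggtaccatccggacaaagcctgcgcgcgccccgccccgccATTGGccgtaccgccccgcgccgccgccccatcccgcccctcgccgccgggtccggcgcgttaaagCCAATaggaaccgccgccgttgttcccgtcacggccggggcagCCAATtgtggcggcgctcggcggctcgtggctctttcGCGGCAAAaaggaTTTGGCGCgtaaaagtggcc
PRIM1 held 1 CCAAT and no E2F word, and ORC5 and CCNE1 held neither in these bases. PCNA held 1 E2F word and 3 CCAAT, E2F1 held 2 and 3, and MCM6 held 4 E2F words, in overlapping pairs, and 2 CCAAT. In the whole window of the table, from 250 bases before to 50 after the start, an E2F word was present in 22 of the 46 promoters (47.8%), against 3.33% of 27305 promoters, and CCAAT was present in 25 (54.3%), against 35.7%. More than 1 E2F word was found in 5 of the 46 (10.9%), among them MCM2, MCM3 and MCM7, against 0.154% of all promoters. None of the 3 called genes in the table, PRIM1, ORC5 and CCNE1, carried an E2F word there. The 22 genes with an E2F word had a median log2 fold change of -0.10, from -0.46 to 0.29, with 15 below 0, and the 24 without had one of -0.13, from -0.74 to 0.72, with 18 below 0. A match is a description of these letters and no measure of binding. Only exact copies of the words were searched, so a promoter without one may still hold E2F sites of other letters.

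Among the 8 MCM genes, 5 had a log2 fold change below 0 and none passed. MCM7, a subunit of the replicative helicase, was the most highly expressed of the 54 genes, at 259, 200 and 269 FPKM in the control libraries and 254, 199 and 277 FPKM in the depleted ones. Its replicate 2 was the lowest library in both groups, and the log2 fold change of 0.00026 had a 95% interval from -0.39 to 0.39. MCM2, of the same ring, was at 64.2, 49.0 and 72.9 against 55.2, 39.8 and 61.7 FPKM (log2 fold change of -0.25, interval from -0.73 to 0.23). MCM4 was at 108, 102 and 106 against 86.6, 84.0 and 87.8 FPKM, so the groups were apart (log2 fold change of -0.29, adjusted p = 0.0966). The largest difference among these 8 genes was in MCM8, a relative of the ring subunits that acts in repair, at 19.2, 22.4 and 17.4 against 14.3, 15.8 and 14.4 FPKM (log2 fold change of -0.40, SE 0.129, adjusted p = 0.118). MCM3, MCM5 and MCM6 lay between -0.08 and 0.17 on the log2 scale and overlapped, and MCM10, at -0.26, did not overlap. The proteins of MCM7 and MCM2 sit in the helicase ring in equal numbers. The ratio of their mRNA, MCM7 to MCM2, was 3.94 ± 0.222 in shControl and 4.69 ± 0.267 in shEphexin1 (SD, n = 3, exact permutation p = 0.1). With the medians of their chromosome arms subtracted, the log2 fold change was -0.30 for MCM7 and -0.21 for MCM2, so the higher ratio was not seen there.

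Apart from ORC5, the origin recognition complex showed no called gene. ORC6 was level at 16.0 FPKM in both groups (log2 fold change of -0.00069, interval from -0.25 to 0.25), and ORC1, ORC2, ORC3 and ORC4 lay between -0.23 and 0.29. The median of the 6 ORC genes was 0.050. Of the 3 licensing genes, CDC6, which loads the helicase, was at 27.3, 26.4 and 26.5 FPKM in the control libraries and 27.5, 27.7 and 26.7 FPKM in the depleted ones, one of the tightest pairs of groups in the list (log2 fold change of 0.03, interval from -0.19 to 0.25). CDT1, its partner, was at 29.4, 21.0 and 36.0 against 26.7, 17.4 and 32.5 FPKM, a spread between replicates larger than the difference of -0.19. GMNN, the inhibitor of CDT1, was at 38.2, 40.5 and 34.3 against 32.7, 36.2 and 29.0 FPKM (log2 fold change of -0.21, adjusted p = 0.372). The ratio of CDT1 to GMNN was 0.780 ± 0.265 and 0.806 ± 0.320 (SD, n = 3, exact permutation p = 1.0).

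All 6 genes of origin firing had a log2 fold change below 0, with a median of -0.29, and none passed. GINS2, a subunit of the GINS complex that works with the helicase, was at 42.4, 37.6 and 43.1 FPKM in the control libraries and 29.8, 27.2 and 32.5 FPKM in the depleted ones. Its groups did not overlap, and its log2 fold change was -0.46 (SE 0.114, adjusted p = 0.0582). GINS1 was at 16.4, 16.5 and 16.3 against 12.97, 14.7 and 12.6 FPKM (log2 fold change of -0.29, adjusted p = 0.174). GINS3, of the same complex, differed by -0.01, with the other sign after median centring or quantile normalization, and GINS4 (-0.30), CDC45 (-0.33) and the kinase gene CDC7 (-0.17) overlapped between groups.

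The clamp PCNA and the 5 genes of its loader were likewise all below 0, with a median of -0.23. PCNA was at 103, 113 and 113 FPKM in the control libraries and 90.04, 91.2 and 86.2 FPKM in the depleted ones, 81.2% of control with no overlap (log2 fold change of -0.30, SE 0.0922, adjusted p = 0.103). RFC4 was at 43.1, 44.4 and 41.9 against 32.7, 37.2 and 33.4 FPKM (log2 fold change of -0.33, SE 0.1003, adjusted p = 0.101). RFC1, RFC2, RFC3 and RFC5 lay between -0.27 and -0.07 and overlapped.

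Among the 9 polymerase and primase genes, PRIM1 passed and 6 were below 0. POLD2, the second subunit of polymerase delta, was at 108, 82.4 and 116 FPKM in the control libraries and 66.6, 51.9 and 76.4 FPKM in the depleted ones, so that every depleted library was below every control library. Its log2 fold change of -0.65 was the third largest decrease of the list, but replicate 2 was low in both groups and the SE was 0.183 (adjusted p = 0.0801). POLD1, the catalytic subunit of the same enzyme, was at 20.2, 13.5 and 21.7 against 20.7, 11.5 and 22.7 FPKM, a difference of -0.04. POLA1, which encodes the catalytic subunit of polymerase alpha, was at 13.3, 15.1 and 12.5 against 10.5, 11.9 and 10.5 FPKM (log2 fold change of -0.31, adjusted p = 0.196). The other 5, PRIM2 among them, lay between -0.21 and 0.14 and overlapped. FEN1 and LIG1, which trim and join Okazaki fragments, differed by -0.13 and -0.06, less than the spread between their replicates. FEN1 was at 39.2, 29.4 and 39.5 against 35.05, 25.9 and 38.3 FPKM.

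Of the 5 genes of nucleotide supply, 4 were below 0 and the median was -0.35. TYMS, the thymidylate synthase, was at 42.1, 37.2 and 40.5 FPKM in the control libraries and 33.7, 30.1 and 30.4 FPKM in the depleted ones, with no overlap (log2 fold change of -0.35, SE 0.105, adjusted p = 0.0992). TK1, the thymidine kinase of dividing cells, was at 63.6, 46.9 and 73.1 against 49.98, 31.4 and 51.1 FPKM, which overlap (log2 fold change of -0.48, SE 0.235, adjusted p = 0.274). DUT, which breaks down dUTP, was at 83.2, 84.6 and 79.3 against 66.6, 75.9 and 51.5 FPKM (log2 fold change of -0.37, adjusted p = 0.196). The groups overlapped for both subunits of ribonucleotide reductase, which makes deoxynucleotides. RRM2, the one that rises in S phase, was at 109, 109.8 and 102.5 against 120.1, 124 and 102.6 FPKM (log2 fold change of 0.11, interval from -0.15 to 0.36), and RRM1 differed by -0.10.

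The 3 activating E2F genes overlapped between groups. E2F1 was at 21.7, 15.8 and 26.4 FPKM in the control libraries and 22.1, 14.0 and 22.6 FPKM in the depleted ones, and its log2 fold change of -0.13 had an interval from -0.70 to 0.45. E2F2 and E2F3 had log2 fold changes of 0.29 and 0.18 (adjusted p = 0.433 and 0.421).

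**Figure D3:**
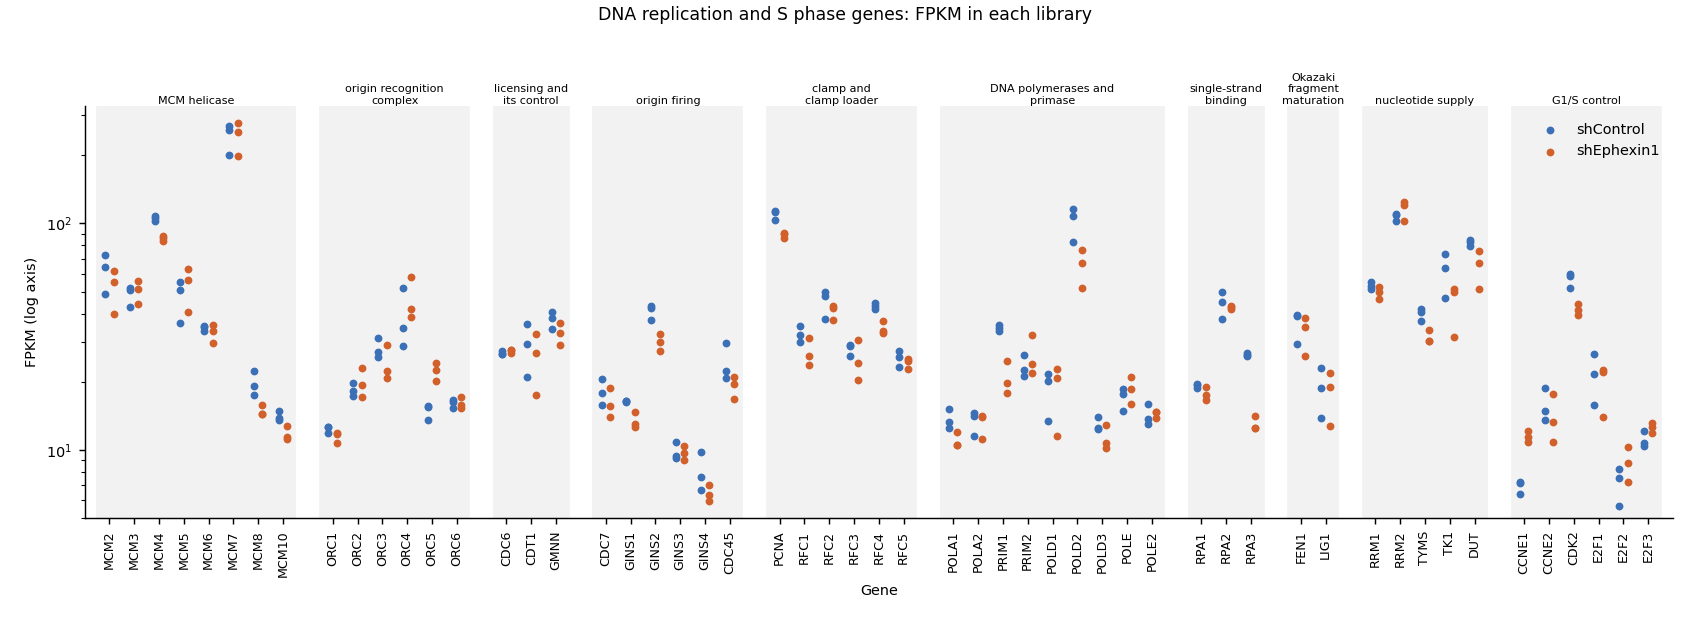
FPKM of the 54 genes in each of the 3 shControl (blue) and 3 shEphexin1 (orange) libraries on a log axis, grouped by role. Levels run from MCM7 at 243 FPKM to CCNE1 at 6.91 FPKM in the mean of shControl, and most pairs of groups lie close together beside this range, with RPA3, PRIM1, CCNE1 and ORC5 among those apart.

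Replicate 2 moved with GC content in these genes too. It lay below the mean of replicates 1 and 3 in both groups for 23 of the 54 genes, above it in both for 25 and on opposite sides for 6, and across the 54 genes its deviation correlated with the GC content of the transcripts (36.9% to 64.3%) with Spearman's rho of -0.90 in shControl and -0.95 in shEphexin1. These points share a library, so the correlation is a description. POLD1, CDT1, E2F1, LIG1 and TK1 were among the genes lowest in replicate 2. With replicates 1 and 3 alone, 11 of the 54 genes fell and 2 rose, 24.1% of the list beside 17.3% of all genes. MCM4, GINS1, GINS2, RFC4, POLD2, TYMS, TK1, DUT and CDK2 joined RPA3 and PRIM1 among those that fell, and the genes that rose were again CCNE1 and ORC5. In this fit the log2 fold change was -0.47 for CDK2 (adjusted p = 0.0126), -0.46 for GINS2 (0.0161), -0.65 for POLD2 (0.00821) and -0.36 for RFC4 (0.0238). PCNA stayed just outside, at -0.30 (adjusted p = 0.0508). When all 6 libraries were corrected for GC content and transcript length, 17 of the 54 genes fell and 3 rose, 37.0% of the list beside 30.4% of all genes. MCM2 (log2 fold change of -0.30, adjusted p = 0.00836), CDT1 (-0.27, 0.0131) and E2F1 (-0.19, 0.0491), which overlapped between groups before, were among those that fell in that fit. Without replicate 2 of shControl alone, 2 of the 54 were called (3.7%, beside 4.04% of all genes). Without that of shEphexin1 alone, 3 were called (5.56%, beside 8.2%). The number of genes called thus differed between fits, and what sets it was not tested. The median over the 54 genes was -0.14 with replicates 1 and 3 alone and -0.11 with the correction, but -0.081 without shEphexin1 replicate 2, and -0.082 after quantile normalization or with arm medians subtracted. The median over all genes tested was -0.011, 0.016, 0.0073, 0.004 and 0.025 in these fits, in the same order.

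Some of the 54 genes lie on chromosome arms whose median log2 fold change was away from 0. The arm median was further than 0.1 from 0 for 19 of them and within 0.1 for 35. Over the 27 arms involved, a gene's log2 fold change correlated with the median of the expressed genes on its arm (Pearson's r = 0.513, Spearman's rho = 0.537 over 54 genes), a description, since genes on an arm share its median and the median includes the gene. TYMS lies on 18p, where the median of 49 genes was -0.46, and with this subtracted its log2 fold change was 0.14. PCNA, MCM8 and GINS1 lie on 20p (median -0.29), and after subtraction their values were -0.01, -0.11 and 0.00088. MCM4, on 8q (-0.24), went to -0.03. MCM7, which was level, lies on 7q, and went to -0.30. RPA3 and POLD2 lie on 7p (-0.25), where RPA3 still fell by 0.77 on the log2 scale beyond its arm (adjusted p = 0.00704) and POLD2 was at -0.41 (adjusted p = 0.203). PRIM1, on 12q (-0.17), remained at -0.56 (adjusted p = 0.0499), and CDK2, on the same arm, was at -0.26 (adjusted p = 0.140). GINS2, on 16q, and CCNE1, on 19q, lie on arms with medians near 0 (0.015 and -0.012), and both passed after subtraction, at -0.48 (adjusted p = 0.0152) and 0.72 (0.0412). The part of the arm-wide differences in these results was not tested further.

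A second list of 66 genes takes in other parts of the replication machinery. Of these, 6 fell and none rose (9.09%, beside the 7.01% of all genes), 14 reached an unadjusted p of 0.05 or less (23.3% of all genes did), 47 were below 0 (51.1% of all genes were), and the median log2 fold change was -0.09. With replicates 1 and 3 alone 13 fell and 2 rose, in a fit that called 17.3% of all genes. POLE3, a histone-fold subunit of polymerase epsilon, was at 91.5, 83.1 and 89.8 FPKM in the control libraries and 57.6, 55.9 and 62.0 FPKM in the depleted ones (log2 fold change of -0.59, adjusted p = 0.0175), whereas the larger subunits POLE and POLE2 differed by 0.12 and 0.02. PCLAF, a protein that binds PCNA (listed under its older symbol), was at 64.2, 66.4 and 61.0 against 42.5, 44.4 and 36.6 FPKM (-0.64, adjusted p = 0.0205). MCMBP, which binds the MCM ring, was at 31.2, 33.3 and 29.8 against 22.4, 24.2 and 21.1 FPKM (-0.48, adjusted p = 0.0412). It lies on 10q (median -0.30), and with the arm median subtracted its difference was -0.17 (adjusted p = 0.262). SKP2, which marks the CDK inhibitor p27 for breakdown, was at 18.2, 22.5 and 21.2 against 14.6, 12.4 and 10.8 FPKM (-0.71, adjusted p = 0.0356). It lies on 5p (median -0.25), beyond which its difference was -0.43 (adjusted p = 0.102), and it passed in none of the fits that leave out 1 library. In those fits, which called 0.968% to 8.2% of all genes, its difference ran from -0.82 to -0.61. CDKN1B, which encodes p27 itself, was at 33.1, 32.2 and 34.98 against 20.7, 21.3 and 20.8 FPKM (-0.67, adjusted p = 0.0114), and lies on 12p (median -0.43), beyond which its difference was -0.21 (adjusted p = 0.191). NME1, a nucleoside diphosphate kinase, was at 154, 123 and 153 against 73.3, 56.0 and 80.2 FPKM (-1.05, adjusted p = 0.0147). Its sequence is close to that of its neighbour NME2, which was at 513 FPKM in the mean of shControl and 268 FPKM in that of shEphexin1, so the split of reads between them is uncertain. Of the 20 fits, POLE3 and NME1 passed in 17, CDKN1B in 16, PCLAF in 14, SKP2 in 12 and MCMBP in 11.

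For comparison, 20 genes of G2 and M phase held 4 that fell and none that rose, beside 4.32% of all genes that fell, with 18 below 0, beside 51.1% of all genes, and a median of -0.27. The genes that fell were CDK1 (log2 fold change of -0.79, adjusted p = 0.0479), BIRC5 (-0.67, 0.0326), AURKA (-0.50, 0.0257) and CCNB2 (-0.39, 0.0485). With arm medians subtracted, CDK1 (-0.48, 0.122) and AURKA (-0.28, 0.236) did not pass. The difference between the lists was not tested.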

How the data were processed

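Total RNA of 6 H1299 libraries was extracted with TRIzol and made into stranded total RNA libraries. Per the labels and the study's methods, the authors used TopHat2 2.0.13 to align reads to GRCh37/hg19 and calculated the deposited FPKM per gene with Cufflinks (Cuffdiff) 2.2.1, with geometric library normalization and pooled dispersion. bcl2fastq 2.20 and Bowtie are also named in the submitters' processing notes. The gene annotation is not given in the sources used here. FPKM hold no counts, so the depth is unknown and no counting interval is given. All 6 value columns were used (0 left out).

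Genes that reached 0.1 FPKM in 3 or more of the 6 libraries were transformed as log2(FPKM + 0.1), a scale that understates the change of low genes, and compared in R 4.3.3 by limma 3.58.1 (lmFit, then eBayes with its trend option), and p values were adjusted by Benjamini-Hochberg over 16020 genes. Standard errors and 95% intervals are those of the moderated model. Permutation tests were exact and two-sided. The procedure was run on simulated data with independent noise for each gene and library. Those data held no GC trend or arm-wide difference, so the run does not show how the fit behaves with them. Positions, GC content and arms came from GENCODE on GRCh37, matched by symbol, and promoters from RefSeq (GRCh38.p14). Arm medians used genes with a mean of at least 1 FPKM. Python 3.11.15 with pandas 2.3.3, SciPy 1.17.1 and matplotlib 3.10.9 served for summaries and plots.

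The members and lists were chosen with earlier results of these data known. Values are given in full for called members, the member with the largest change in each role, 12 set names (MCM2, MCM7, CDC6, CDT1, GMNN, PCNA, TYMS, RRM2, CCNE1, CCNE2, CDK2, E2F1) and the called genes of the second list. Other genes, the ratios, the overlapping genes and the promoters shown were picked after their values had been seen. No set test was run. Not every marker gene looked at is reported here. The alternatives were pseudocounts of 1 and 0.01 FPKM, no filter or one of 1 FPKM, quantile normalization, median centring, eBayes robust or with no trend, a replicate block, replicates 1 and 3 alone, loess correction for GC content and length with and without the block, subtraction of arm medians, and each library left out in turn.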

Additional observations from a re-analysis of the deposited data

How the results depend on the processing

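Pseudocount, filter and robust estimation left the members' counts of 2 lower and 2 higher as they were, in fits that called 5.38% to 7.52% of all genes. Median centring gave 4 lower (6.87% of all genes were called in either direction). The correction for GC content and length gave 17 (30.4%), and replicates 1 and 3 alone 11 (17.3%). eBayes without trend and subtraction of arm medians each left 1 higher, and the latter gave 3 lower (5.69% and 6.43% of all genes were called). Leaving out each library in turn gave 1 to 2 lower and 0 to 1 higher, in fits that called 0.968% to 8.2% of all genes. RPA3 alone met the study thresholds, and the count of 1 became 0 with a pseudocount of 1 FPKM, quantile normalization, replicates 1 and 3 alone, either GC correction or arm medians subtracted, and 0 to 1 with a library left out. The members' median was -0.082 after quantile normalization and -0.082 after subtraction of arm medians, and ranged from -0.17 to -0.081 with a library left out. The median of all genes tested was 0.004 and 0.025 in the former fits, and -0.025 to 0.0073 with a library left out.

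A fit with the replicate number as a block gave 21 members lower and 5 higher (33.5% of all genes were called), and with the GC correction 20 and 7 (34.6%). The sample titles number the libraries and do not state a pairing, so the fit as reported has no block. Deviations of same-numbered libraries correlated at 0.0914, 0.43 and 0.328, and those of other pairs at -0.383 to 0.0887. Every library correlated best with its own number, but shEphexin1 replicate 1 did so barely (0.0914, against 0.0887 with shControl replicate 3). The deviations within a group depend on each other, and those of same-numbered libraries followed GC content in the same direction. Whether the libraries were paired was not tested and is not stated by the design. With the block the second replication list had 22 lower and 6 higher, the G2 and M list 13 called and NGEF a value of -0.53 (adjusted p = 0.00284), and with the GC correction and the block 19, 7, 11 and -0.57 (0.00161).

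Of the second list, 13 were lower and 2 higher with replicates 1 and 3 alone, 16 and 5 with the GC correction, 1 higher with arm medians subtracted, and 4 lower under eBayes without trend and after quantile normalization. With a library left out 0 to 6 were lower. Of all genes, 17.3% were called with replicates 1 and 3 alone, 30.4% with the GC correction and 6.43% with arm medians subtracted. Other shares were 5.69% under eBayes without trend, 5.67% after quantile normalization and 0.968% to 8.2% with a library left out. They were 6.58% with a pseudocount of 0.01 FPKM and 6.87% after median centring, for the next list. The 4 called genes of the G2 and M list became 2 with a pseudocount of 0.01 FPKM, median centring or arm medians subtracted, 1 after quantile normalization, 0 under eBayes without trend, 9 with replicates 1 and 3 alone, 10 with the GC correction and 0 to 5 with a library left out. NGEF passed with replicates 1 and 3 alone (-0.54, adjusted p = 0.0338) and with the GC correction (-0.57, 0.00121).

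Uncalled members changed sign in places. With arm medians subtracted, CCNE2 was at 0.072, E2F1 at 0.092, TYMS at 0.14 and MCM7 at -0.30, and MCM7 was at -0.024 with the GC correction, with or without the block. With a library left out, CDT1 ranged from -0.40 to 0.066, E2F1 from -0.32 to 0.099, FEN1 from -0.27 to 0.036 and MCM7 from -0.13 to 0.14. For the genes named, 393 of the alternative values kept direction and call, 50 lost the call, 38 gained it and 13 changed sign. The causes of these changes were not tested. With 3 libraries a group, leaving out 1 assumes that the remaining libraries vary alike, and the unknown read depth limits what can be said of the low genes CCNE1, E2F2 and GINS4.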

Other observations

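Some genes of the second replication list that the test did not call are given here because their libraries did not overlap, a choice made after the values were seen. Not all such genes are given. In the whole list of 66, called genes included, 15 did not overlap on the lower side and 2 on the higher side. Over all genes tested, these shares were 15.4% and 12.8%. CDKN1A, which encodes the CDK inhibitor p21, was at 43.7, 30.4 and 45.2 FPKM in the control libraries and at 62.9, 47.1 and 68.0 FPKM in the depleted ones (log2 fold change of 0.58, SE 0.199, limma adjusted p = 0.133). CCNA2, the cyclin that works with CDK2 in S phase, was at 97.8, 106 and 92.0 FPKM in the control libraries and at 68.9, 90.6 and 71.0 FPKM in the depleted ones (log2 fold change of -0.37, limma adjusted p = 0.150). DSCC1, a subunit of an alternative clamp loader, was at 13.5, 13.5 and 12.3 against 9.56, 10.4 and 7.19 FPKM (log2 fold change of -0.54, limma adjusted p = 0.0888). TOP1, which relieves the twist ahead of the fork, was at 21.4, 28.3 and 20.2 against 16.4, 18.6 and 15.3 FPKM (log2 fold change of -0.46, limma adjusted p = 0.133). In CDKN1A the depleted cells were higher, and in CCNA2, DSCC1 and TOP1 lower, in all 3 libraries. With arm medians subtracted, CDKN1A (0.60, limma adjusted p = 0.0473) and CCNA2 (-0.36, 0.0422) passed. Their arms, 6p and 4q, had medians near 0 (0.015 and -0.0049), so their log2 fold changes hardly moved. DSCC1 (-0.29, 0.216) and TOP1 (-0.24, 0.563) did not pass. Of the 20 fits, CDKN1A passed in 5, CCNA2 in 6, and DSCC1 and TOP1 in 4 each.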
